A study of Mus musculus with 12 samples.

Results

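The clustered replication-dependent histone genes were read across WT, ∆Firre and Firre rescue common lymphoid progenitors (CLPs). Members were chosen by name: every gene of the expression table whose symbol starts with Hist1h, Hist2h, Hist3h or Hist4h, or with a newer H1f, H2ac, H2bc, H3c or H4c name, and that was above 0 in at least 1 library. Of 59 genes with such a name, 55 met this rule, out of 47643 genes in the table and 25277 above 0. The other 4 (Hist2h2aa2, Hist1h1t, Hist1h2ba and Hist1h2al) were listed at 0 in all 12 libraries. By family, the 55 genes comprised 5 linker histone H1, 16 H2A, 15 H2B, 7 H3 and 12 H4 genes. The H2B and Hist3 counts include Hist3h2bb-ps, a pseudogene by its symbol, at 0.307 TPM on average. By position, 43 of the 55 lie in the Hist1 cluster on chromosome 13, 9 in the Hist2 cluster on chromosome 3 and 3 in the Hist3 cluster on chromosome 11 (GRCm38).

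CLPs are bone marrow progenitors that give rise to lymphocytes, and Firre is a long noncoding RNA made from the X chromosome. Poly(A)+ RNA was sequenced from CLPs of 12 male mice aged 27 to 32 weeks, sorted as lineage-negative cells with low Sca1 and cKit and with IL7Rα, with 4 mice in each of 3 groups. WT mice carried an intact Firre locus. ∆Firre mice (labelled KO) carried a deletion of the whole gene and its promoter, made by crossing a floxed allele to a CMV-Cre deleter line. Firre rescue mice carried the same deletion, a Firre cDNA transgene under a tet-responsive element with a minimal CMV promoter, and a constitutive rtTA transactivator, and were fed doxycycline. No rescue library without doxycycline, and none with rtTA alone, was analysed here, so the transgene, rtTA and the diet cannot be told apart. Firre itself was at 25.2 to 31.6 TPM (a level scaled for gene length and library size) in the 4 WT libraries, listed at 0 in all 4 ∆Firre libraries, and at 59.9, 135.5, 63.0 and 174.0 TPM in rescue mice 1 to 4.

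Replication-dependent histone genes supply the protein for newly made chromatin. H2A, H2B, H3 and H4 form the nucleosome core, and H1 binds the linker DNA between nucleosomes. Most of these genes lack introns and are transcribed in S phase. Their mRNAs typically end in a conserved stem-loop, bound by the protein SLBP, in place of a poly(A) tail, although some clustered genes also give polyadenylated transcripts. A poly(A)+ library therefore samples these mRNAs unevenly, and the values here are levels in that RNA fraction rather than total histone mRNA.

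The 3′ ends are shown first because they bear on what such a library can hold. The stem-loop was searched for as GG, any 3 bases, T, any 4 bases, A, any 3 bases and CC, with a 6-base arm on each side that pairs fully with the other, on the sense strand within 100 bases after the stop codon of each protein-coding transcript model (Gencode vM1, whose models lie on an older build than the alignments and are used here for sequence only). It was found in 58 of 22754 genes (0.255%), and 37 of these were among the 52 clustered histone genes that had a model. It began 21 to 58 bases after the stop codon, with a median of 31. Of the 15 histone genes with a model and no match, 8 had models that end before the 37 bases needed for the site nearest a stop codon, and 2 more ended at 37 and 40 bases, too short for most of the sites seen. In the sites below, the 16 bases of stem and loop are in capitals, with 5 bases on each side.

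Hist1h1e: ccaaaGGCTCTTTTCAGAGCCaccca
Hist1h2bg: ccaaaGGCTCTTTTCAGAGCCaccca
Hist1h1c: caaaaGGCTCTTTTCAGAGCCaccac
Hist1h3c: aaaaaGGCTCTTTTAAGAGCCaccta
Hist1h4b: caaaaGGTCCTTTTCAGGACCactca
Hist1h4n: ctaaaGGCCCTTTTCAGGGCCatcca
Hist1h4i: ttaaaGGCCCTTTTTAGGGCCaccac

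The first form, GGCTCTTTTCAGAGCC, was shared by 23 genes. The form of Hist1h4n, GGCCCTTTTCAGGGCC, was held by 6 genes. The poly(A) signal AATAAA lay in the last 40 bases of a model in 10 of the 52 histone genes, against 13138 of the 22754 genes (57.7%). For Hist1h2bc and Hist2h2be, AATAAA was present and the stem-loop was not.

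In WT CLPs, a few genes carried most of the histone signal. The sum of all 55 genes was 343.2, 197.5, 327.5 and 370.0 TPM in WT mice 6, 8, 10 and 11. WT mouse 8 was the low library, and also had the fewest histone genes above 0 (16, against 28 to 48 in the other 11 libraries). It was the shallowest library as well, at 10953973 recovered reads. Thinned to that depth, the other libraries held 26.6 to 46.2 of these genes on average, and the part of depth in its low count was not tested further. The 4 genes of highest level (Hist1h2bc, Hist1h4i, Hist1h1c and Hist2h2be) made up 63.8% ± 6.51 (SD, n = 4) of the sum in WT, 63.1% ± 11.1 (SD, n = 4) in ∆Firre and 32.8% ± 5.85 (SD, n = 4) in rescue libraries. Many of the other genes were measured from few reads. Between 10 and 20 of the 55 had at least 10 reads in each WT or ∆Firre library, and 35 to 40 had at least 10 in each rescue library.

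**Figure D1:**
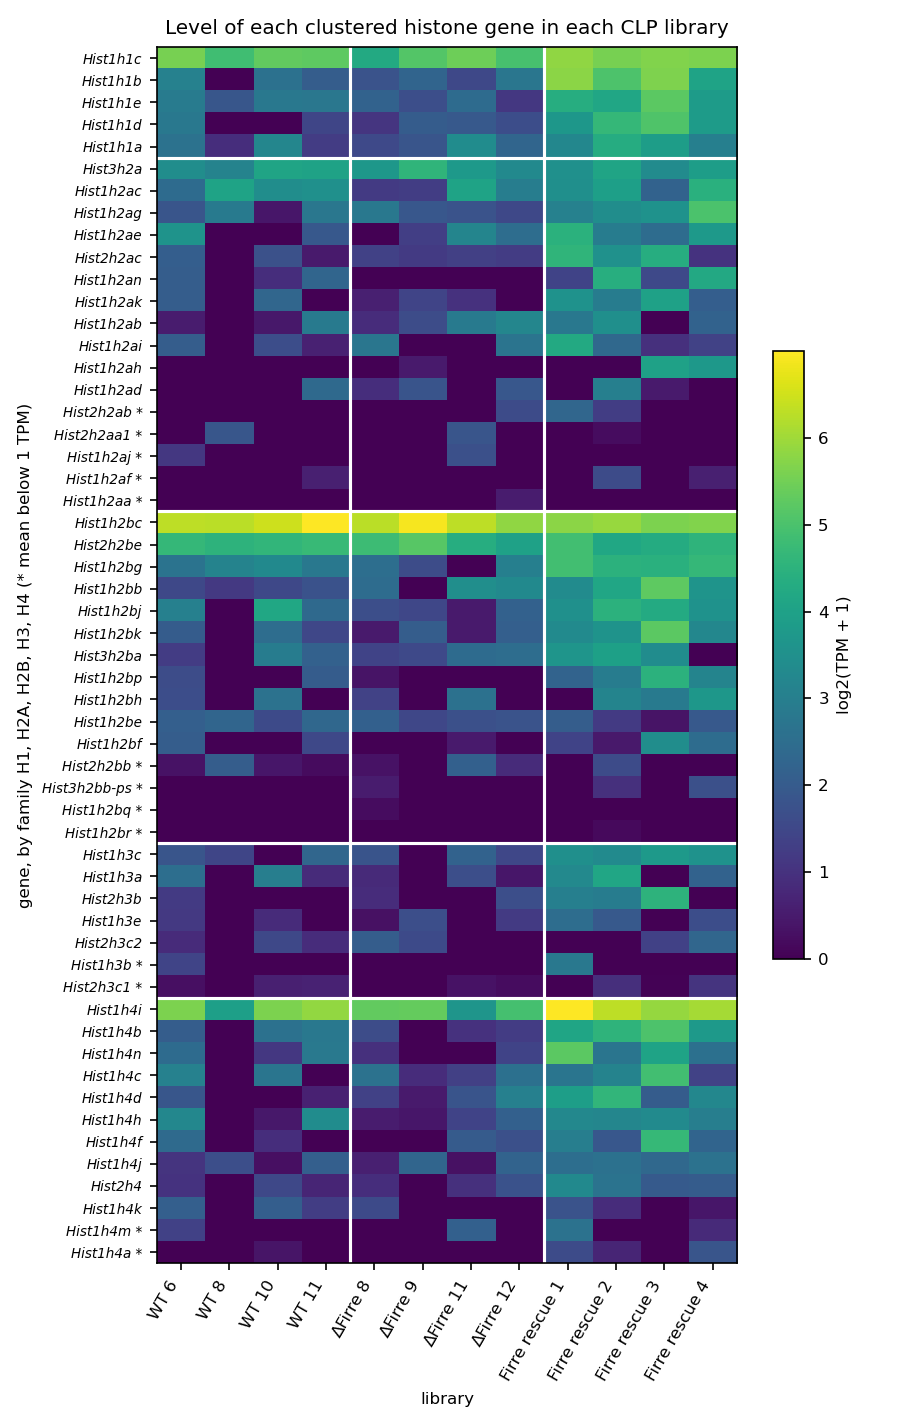
Level of each of the 55 clustered histone genes (rows, by family and by mean level) in each of the 12 CLP libraries (columns), as log2(TPM + 1) on the colour scale. Genes with a mean below 1 TPM carry an asterisk, and white lines divide the families and the groups. Most rows brighten in the 4 rescue columns, while Hist1h2bc and Hist2h2be are bright in every column and WT 8 is dark in most rows.

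Deletion of Firre was compared with WT first. The ∆Firre sums were 238.8, 296.4, 269.8 and 250.2 TPM in mice 8, 9, 11 and 12. These lie within the WT range only through WT mouse 8, and below the sums of the other 3 WT mice. Their mean was 263.8 ± 25.2 (SD, n = 4) against 309.6 ± 76.7 (SD, n = 4) in WT, a ratio of 0.852, and the WT mean was 346.9 TPM without WT mouse 8. No histone gene was called higher or lower by limma at an adjusted p of 0.1 or less (smallest adjusted p = 0.929). Across all 14479 genes tested, 0.0207% were called, 0.0138% higher and 0.00691% lower. Without the filter on low values 0 of the 55 were called, against 0.0237% of all genes, 0.0158% higher and 0.00791% lower. The 4 ∆Firre libraries did not all lie above or all below the 4 WT libraries for any of the 42, against 0.843% of all genes tested above and 4.49% below. At an unadjusted p under 0.05, limma gave 1 of the 42 histone genes tested (5.30% of all genes) and limma-voom on recovered reads gave 0 (2.56%). Without WT mouse 8 the count was 7 of 42 (4.02% of all genes), with 0 called and a fitted difference at or below 0 for 32 of the 42. The standard errors reached 0.88 on the log2(TPM + 1) scale, so changes of several fold in single low genes could not be detected. Hist1h2bg was at 5.29, 7.75, 8.95 and 5.92 TPM in WT and at 4.73, 2.096, 0 and 7.11 TPM in ∆Firre, a difference of -1.18 ± 0.50 (SE) that did not pass (limma adjusted p = 0.929). Library numbers fall into separate ranges, and within each of the 2 that hold WT and ∆Firre mice the summed difference was -29.5 TPM and -62.0 TPM, from 2 mice of each group.

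Firre rescue CLPs stood apart from both other groups. The histone sums were 695.2, 625.3, 706.6 and 510.6 TPM in rescue mice 1 to 4, all above the highest WT value of 370.0 TPM. The rescue mean was 634.4 ± 90.0 (SD, n = 4), 2.40 times that of ∆Firre and 2.05 times that of WT. H1, H2A, H3 and H4 sums did not overlap between rescue and the other groups. H2B sums did overlap.

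**Figure D2:**
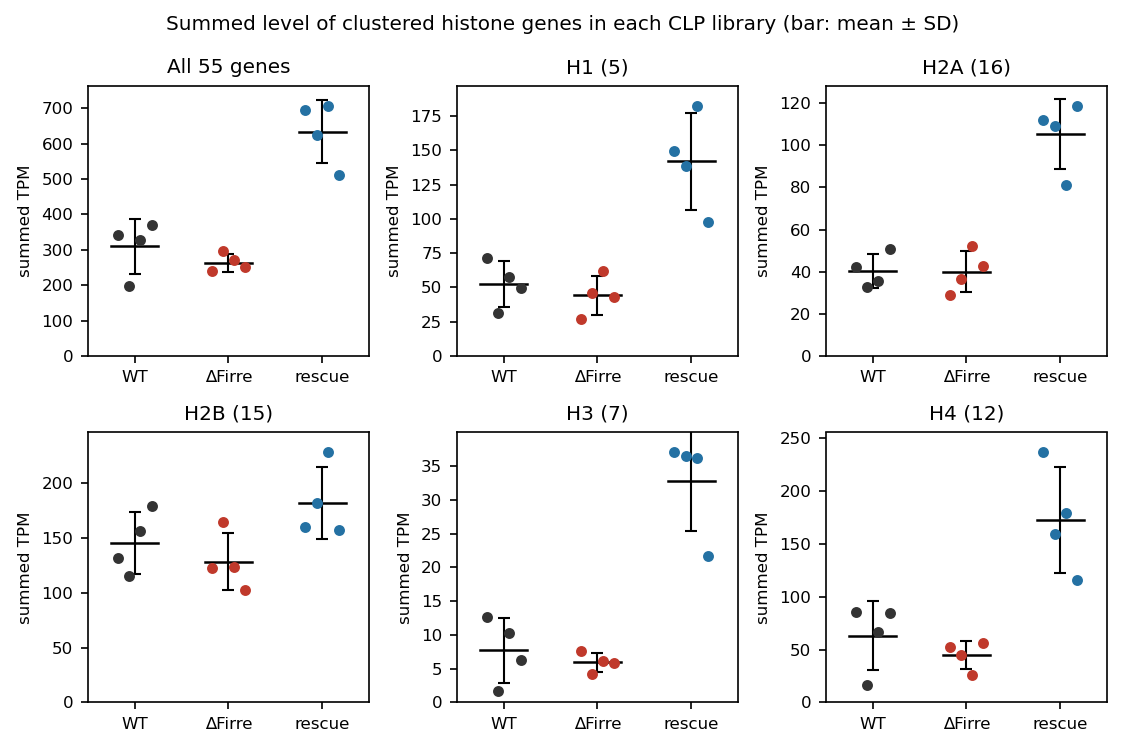
Summed TPM of all 55 genes and of each family (number of genes in brackets) in each library, as points for WT, ∆Firre and rescue, with the mean as a line and the SD as a bar. For all genes and for H1, H2A, H3 and H4, the 4 rescue libraries lie above all 8 others, and for H2B the lowest rescue library (157.3 TPM) lies below the highest WT library (179.2 TPM).

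By family, H3 showed the largest ratio of rescue to ∆Firre sums, 5.55, followed by H4 (3.84), H1 (3.20), H2A (2.63) and H2B (1.42). This order holds for the full sums only, in which 1 gene can hold much of a family. Hist1h1c held 31.2 of the 44.4 TPM of H1 in ∆Firre, and 50.1 of 141.8 in rescue. Hist1h4i held 29.9 of the 45.0 TPM of H4 in ∆Firre, and 81.6 of 172.7 in rescue. The H2B ratio rests on Hist1h2bc, without which it was 2.79. That value is not set against H2A, whose highest gene, Hist3h2a, was also not higher in rescue (14.1 TPM in ∆Firre, 12.5 in rescue). The H2B share of the histone sum was 48.2% ± 8.14 (SD, n = 4) in WT, 48.5% ± 6.44 (SD, n = 4) in ∆Firre and 28.8% ± 4.07 (SD, n = 4) in rescue. The 4 genes of highest level summed to 167.5 TPM in ∆Firre and 206.3 TPM in rescue, while the other 51 genes summed to 96.3 and 428.1 TPM, a ratio of 4.45.

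Single genes were tested with limma on log2(TPM + 1) over all genes with a mean of at least 1 TPM. Of the 55 histone genes, 42 passed this filter, 35 of them on the WT and ∆Firre libraries alone and 7 only through their level in rescue. Those 7 had to be higher in rescue to be tested, so counts are given for both sets and without the filter. Rescue against ∆Firre, 24 of the 42 were called higher, against 8.58% of all genes tested, and 1 was called lower, against 19.3%. Among the 35, 19 were higher and 1 lower, against 8.53% higher of the genes that pass in the same way. Without the filter, 17 of all 55 were higher and 0 lower (background 3.77% and 9.12%), and 26 of the 55 had an unadjusted p under 0.05 in limma, as did 22.0% of all genes. The limma-voom fit on recovered reads called 19 of the 42 higher and 0 lower (background 11.1% and 18.6%). The median difference over all 55 genes was 1.17, and over all 25277 genes it was -0.08.

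Rescue against WT gave 18 of 42 higher (background 4.82%) and 1 lower (19.4%). Among the 35, 15 were higher and 1 lower, against 4.72% higher of the genes that pass in the same way. Without the filter, 13 of 55 were higher (2.03%) and 1 lower (8.89%). Both comparisons use the same rescue libraries, so they are not independent. Libraries did not overlap, with all 4 rescue values above all 4 ∆Firre values, for 18 of the 42 genes, against 6.31% of all genes tested, and for 15 of the 35, against 6.26% of the genes that pass in the same way. Against WT this held for 14 of the 42, with a background of 3.55%, and for 12 of the 35 (3.45%). All 4 rescue values lay below all 4 ∆Firre values for 0 of the 42 genes (15.6%), and below all 4 WT values for 1, Hist1h2bc (14.5%). The rescue libraries have a range of library numbers of their own, so genotype and range cannot be told apart. With each gene corrected for its GC content, 15 of the 42 were higher against ∆Firre (background 13.7%). Rescaling by the median ratio shifted the median of all genes from -0.16 to -0.05 and changed the split of all calls from 1242 higher and 2801 lower to 1889 and 1875, with 24 histone genes higher and 0 lower. Against WT the split of all calls changed from 698 higher and 2814 lower to 1288 and 1256.

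**Figure D3:**
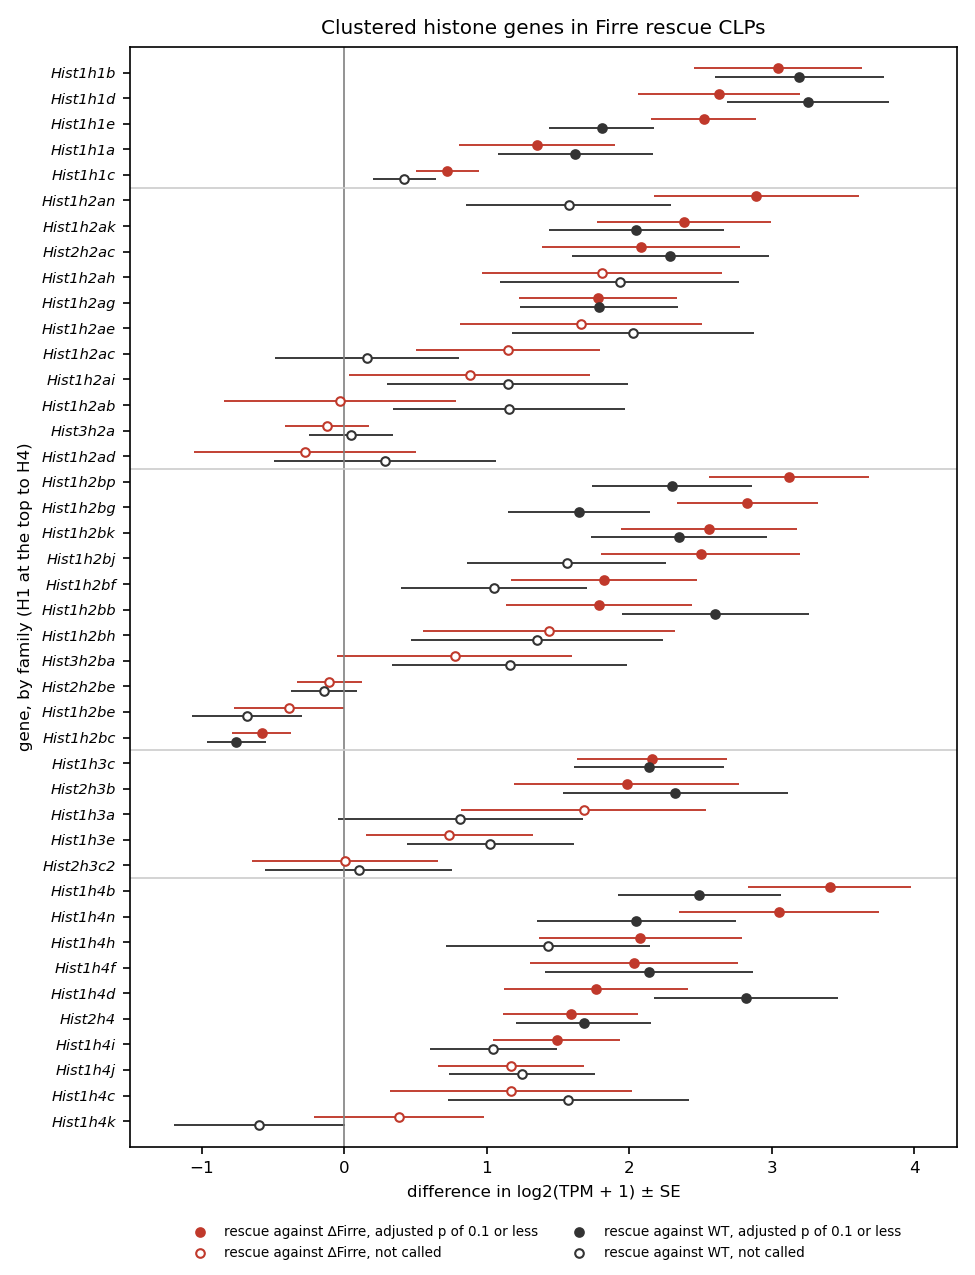
Difference in log2(TPM + 1) with its standard error for each of the 42 tested genes, rescue against ∆Firre in red and rescue against WT in black. Filled points have an adjusted p of 0.1 or less in limma, and grey lines divide the families. Most points lie right of 0, and Hist1h2bc is the only filled pair to the left.

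Among linker histones, 5 of 5 were called higher against ∆Firre, beside 8.58% of all genes tested. Without the filter, with GC correction and by limma-voom 4 of 5 were, with Hist1h1a lost each time. The shares of all genes there were 3.77%, 13.7% and 11.1%. Hist1h1b (chr13:21779832-21780625) was at 53.6, 31.8, 49.2 and 15.7 TPM in rescue, at 2.48, 3.81, 1.86 and 5.77 TPM in ∆Firre, and at 7.36, 0, 5.06 and 3.22 TPM in WT. Every rescue value lay above the others, and the difference was 3.04 ± 0.59 (SE) against ∆Firre (limma adjusted p = 0.00483). These values rest on 7 to 24 reads in each ∆Firre library and 110 to 387 in each rescue library. Hist1h1e had the smallest adjusted p of any member. It lies at chr13:23621777-23622558 and was at 19.5, 16.8, 36.4 and 13.2 TPM in rescue and at 3.56, 2.23, 4.48 and 1.19 TPM in ∆Firre, a difference of 2.52 ± 0.37 (limma adjusted p = 0.000937). Hist1h1d differed by 2.63 ± 0.57 from ∆Firre and by 3.25 ± 0.57 from WT, where it was at 0 in 2 of 4 libraries. Hist1h1c, the linker histone of highest level, moved least. It was at 55.9, 46.1, 50.2 and 48.0 TPM in rescue and at 18.1, 33.8, 43.1 and 29.9 TPM in ∆Firre, a difference of 0.72 ± 0.22 (limma adjusted p = 0.0383). Against WT it was not called (0.42 ± 0.22, limma adjusted p = 0.214). Hist1h1a was called at the edge of the threshold (1.35 ± 0.55 against ∆Firre, limma adjusted p = 0.0998), and its lowest rescue value of 7.11 TPM lay below the highest ∆Firre value of 9.51 TPM.

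Among H2A genes, 4 of 11 tested were called higher against ∆Firre and 3 against WT, beside 8.58% and 4.82% of all genes tested. Of the 9 that pass the filter on WT and ∆Firre alone, 3 were higher against ∆Firre, beside 8.53%. With GC correction 1 of the 11, Hist1h2ak, stayed called against ∆Firre, beside 13.7% of all genes in that setting and 8.58% without the correction. Hist2h2ac, in the Hist2 cluster, was at 22.7, 10.5, 19.4 and 1.02 TPM in rescue and 1.58, 1.28, 1.51 and 1.37 TPM in ∆Firre. Rescue mouse 4 fell below all 4 ∆Firre values (2.08 ± 0.69, limma adjusted p = 0.0537). The call was lost without the filter (limma adjusted p = 0.117), with GC correction (0.139) and by limma-voom (0.146). Hist1h2an was listed at 0 in all 4 ∆Firre libraries and at 1.67, 19.9, 1.92 and 17.6 TPM in rescue. Its rescue libraries split into a low and a high pair, and its difference of 2.89 ± 0.72 (limma adjusted p = 0.0161) depends on the pseudocount. It passed the filter only through rescue, and its call was lost with GC correction (limma adjusted p = 0.110). Hist3h2a had the highest level of the family and showed no such pattern. It was at 10.4, 16.1, 9.47 and 13.9 TPM in rescue, 12.04, 22.8, 12.5 and 9.07 TPM in ∆Firre and 9.70, 7.82, 15.99 and 15.5 TPM in WT, and all 3 groups overlapped (-0.12 ± 0.29 against ∆Firre). It overlaps Trim17 in the RefSeq annotation, so reads may be shared between them. Hist1h2ac was not called either (1.15 ± 0.65, limma adjusted p = 0.234), with values from 1.29 to 15.7 TPM in ∆Firre and from 3.57 to 20.7 TPM in rescue.

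Of the H2B genes, 6 of 11 tested were called higher and 1 lower against ∆Firre, beside 8.58% and 19.3% of all genes tested. Of the 9 that pass on WT and ∆Firre alone, 4 were higher and 1 lower, beside 8.53% higher of the genes passing likewise. Without the filter 4 of all 15 were higher and 0 lower, beside 3.77% and 9.12%. Hist1h2bg (chr13:23571400-23571863) was at 28.2, 21.6, 20.8 and 24.5 TPM in rescue, clear of all WT and ∆Firre values (2.83 ± 0.50 against ∆Firre, limma adjusted p = 0.00276). Hist1h2bp, which passed the filter only through rescue, was at 3.72, 6.73, 21.6 and 7.97 TPM in rescue and at 0 in 3 of 4 ∆Firre libraries, a difference of 3.12 ± 0.56 (limma adjusted p = 0.00317). Hist1h2bk (2.56 ± 0.62), Hist1h2bj (2.502 ± 0.70) and Hist1h2bb (1.79 ± 0.65) were called higher as well, the last of them not without the filter (limma adjusted p = 0.155). Against WT, Hist1h2bb was called (2.60 ± 0.65, limma adjusted p = 0.0188), also without the filter (0.0492), from 2 to 5 reads in each WT library. Hist1h2bf, also tested only through rescue, was called (1.82 ± 0.65) but not without the filter (limma adjusted p = 0.114). Hist1h2bc (chr13:23684199-23692480), the histone gene of highest level, was called lower. It was at 54.1, 59.8, 48.2 and 49.9 TPM in rescue and at 77.5, 76.9, 86.8 and 126.7 TPM in WT, without overlap (-0.76 ± 0.21, limma adjusted p = 0.0265). That call was lost under median-ratio scaling (limma adjusted p = 0.124) and GC correction (0.131). The ∆Firre values of 76.4, 118.9, 77.3 and 56.5 TPM overlapped those of rescue (-0.58 ± 0.21, limma adjusted p = 0.0684). The call against ∆Firre was lost without the filter and in several other settings. Hist2h2be was level across groups, at 28.3, 17.1, 18.8 and 22.6 TPM in rescue and at 26.8, 35.3, 19.6 and 14.9 TPM in ∆Firre (-0.10 ± 0.23), a small difference whose sign changed with rescaling. Hist1h2be, at 1.91 ± 1.36 TPM in rescue and 2.49 ± 0.683 TPM in ∆Firre (SD, n = 4), was not called.

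Of the H3 genes, 2 of 5 tested were called higher against each group, beside 8.58% of all genes against ∆Firre and 4.82% against WT. Among the 3 that pass the filter on WT and ∆Firre alone, 1 was higher against each group, Hist1h3c, beside 8.53% and 4.72%. It was also the 1 of all 7 called without the filter, beside 3.77% and 2.03%. Hist1h3c, the H3 gene of highest level, was at 10.3, 9.17, 12.6 and 10.9 TPM in rescue and 2.52, 0, 3.62 and 1.83 TPM in ∆Firre. The rescue libraries agreed closely and lay above every other library (2.16 ± 0.53, limma adjusted p = 0.0146). Hist2h3b, at 7.18, 6.62, 22.1 and 0 TPM in rescue, was called (1.98 ± 0.79, limma adjusted p = 0.0965) although rescue mouse 4 had none. It passed the filter only through rescue and was not called without the filter (limma adjusted p = 0.173) or with GC correction (0.389). Hist1h3e and Hist2h3c2, just above the filter at 1.30 and 1.19 TPM on average, were not called.

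Among H4 genes, 7 of 10 tested were called higher against ∆Firre and 5 against WT, beside 8.58% and 4.82% of all genes tested. Of the 9 that pass on WT and ∆Firre alone, 6 were higher against ∆Firre, beside 8.53%. Without the filter 5 of all 12 were, beside 3.77%. Against WT, 3 of the 12 were higher without the filter (2.03%) and 3 of the 10 by limma-voom (6.34%). Hist1h4b was at 16.3, 22.4, 32.1 and 12.6 TPM in rescue, at 2.07, 0, 0.992 and 1.35 TPM in ∆Firre and at 3.18, 0, 5.16 and 6.02 TPM in WT. No rescue value came near those of the other groups (3.41 ± 0.57 against ∆Firre, limma adjusted p = 0.00219). This was the largest fitted difference from ∆Firre with a pseudocount of 1, but by limma-voom it was 4.46, below Hist1h2bp (5.72) and Hist1h2an (4.72). Hist1h4b rested on 0 to 4 reads in each ∆Firre library and 47 to 135 in each rescue library. Hist1h4n (3.05 ± 0.70) was more uneven, at 36.6, 5.63, 15.6 and 4.94 TPM in rescue. Hist1h4d was at 14.2, 23.3, 3.13 and 8.37 TPM in rescue and 1.57, 0.424, 2.51 and 7.27 TPM in ∆Firre, which overlap (1.77 ± 0.65, limma adjusted p = 0.0739). This call too was lost without the filter (limma adjusted p = 0.152), with GC correction (0.163) and by limma-voom (0.144). Against WT, where it was above 0 in 2 of 4 libraries, Hist1h4d was called (2.82 ± 0.65, limma adjusted p = 0.0123). That call held without the filter (limma adjusted p = 0.0332), with GC correction (0.0166) and by limma-voom (0.0523). Hist1h4i (chr13:22040960-22041362), the H4 gene of highest level, was at 125.1, 77.2, 58.5 and 65.4 TPM in rescue and 38.6, 39.9, 11.6 and 29.5 TPM in ∆Firre (1.49 ± 0.45, limma adjusted p = 0.0356). It was not called against WT (1.05 ± 0.45, limma adjusted p = 0.129). Hist1h4k, the lowest gene tested at 1.14 TPM, was not called, and just below the filter Hist1h4m averaged 0.914 TPM, Hist2h2bb 0.872 and Hist1h3b 0.641.

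**Figure D4:**
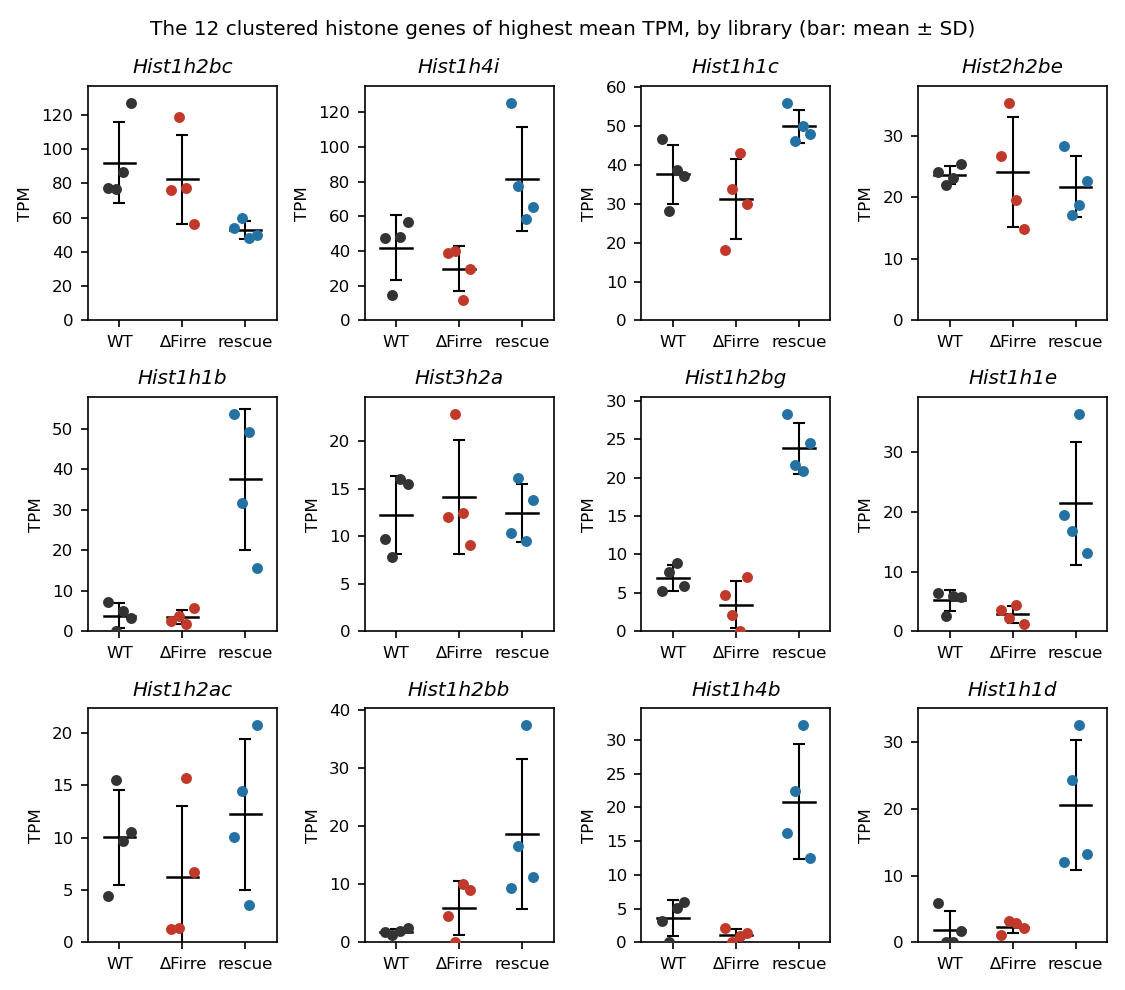
TPM of the 12 histone genes of highest mean level in each library, as points for WT, ∆Firre and rescue, with the mean as a line and the SD as a bar (bars that would pass below 0 end at the axis). In Hist1h1b, Hist1h2bg, Hist1h1e, Hist1h4b and Hist1h1d the rescue points lie apart from the rest, while in Hist2h2be, Hist3h2a and Hist1h2ac the 3 groups overlap.

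By cluster, 21 of 35 tested Hist1 genes, 3 of 5 Hist2 genes and 0 of 2 Hist3 genes were called higher against ∆Firre, beside 8.58% of all genes tested. Without the genes tested only through rescue these counts were 18 of 30, 1 of 3 and 0 of 2, beside 8.53%. Within the core families some copies are near-identical in coding sequence, and the handling of reads that match several copies is not given in the sources used here, so reads may be divided unevenly between copies. Family sums are less open to this than single genes.

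The genes were then described by 3′ end, a grouping made after their values had been seen and therefore given without a test. Values in brackets leave out the genes tested only through rescue. The share of all genes higher against ∆Firre was 8.58%, and 13.7% with GC correction and 11.1% by limma-voom. Of 26 tested genes with a stem-loop and no AATAAA, 15 were higher against ∆Firre (14 of 23), with a median difference of 1.77 over either set. With GC correction 9 of the 26 were higher, and by limma-voom 11. Of 6 with both, 3 were higher (1 of 4), with a median of 1.24 (0.83). The 2 with AATAAA alone, Hist1h2bc and Hist2h2be, differed by -0.58 and -0.10. In 7 genes neither was found, but their models end 0 to 40 bases past the stop codon, so the loop position was mostly out of reach. Of these, 6 were higher (4 of 5), with a median of 2.38 over either set, and with GC correction 3 of the 7 were higher. In 9 tested genes a model ran at least 500 bases past the stem-loop, or AATAAA was present and no model had the stem-loop. Of these 9, 3 were higher and 1 lower, with a median of 0.72 (2 higher and 1 lower of 8, median 0.31). The other 33 tested genes had 21 higher and 0 lower, with a median of 1.81 (17 and 0 of 27, median 1.78). These 33 include Hist1h2bp (3.12), which has a model with the stem-loop and another with AATAAA and no stem-loop. The long models included Hist3h2a (1487 bases past the loop), Hist1h2be (1789), Hist1h2ac (2010), Hist1h1c (839) and Hist1h1d (3050). The gene lengths behind the TPM values were shorter than these models for Hist1h1d (744 bases, model 3821), Hist1h2ac (476, model 2482) and Hist1h2ai (393, model 1041), so those 3 were counted on short models and their place in this grouping is uncertain. Whether RNAs with or without poly(A) tails entered the libraries in unequal shares was not tested.

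**Figure D5:**
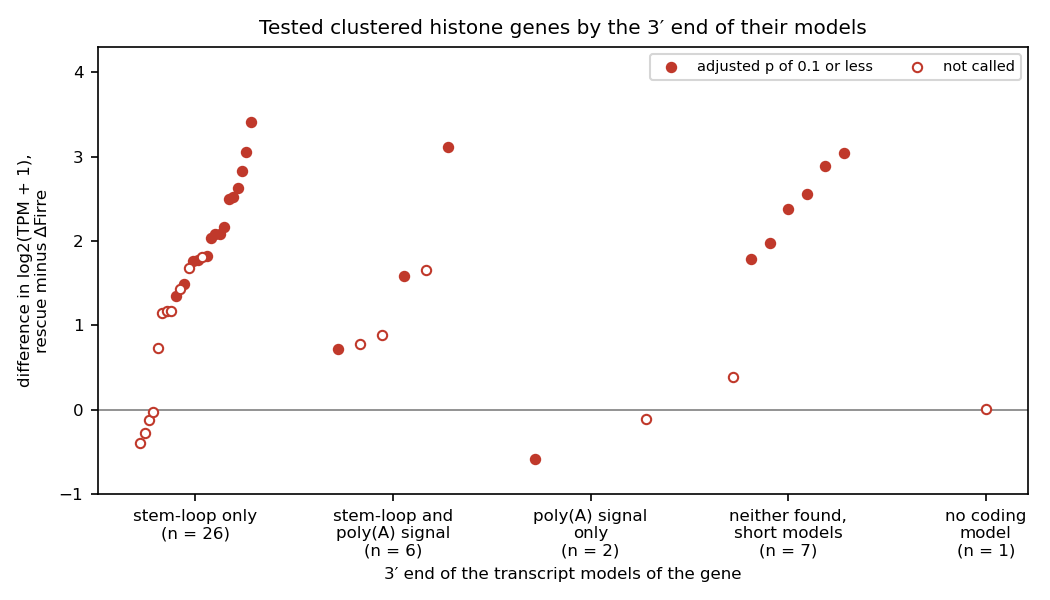
Difference in log2(TPM + 1), rescue minus ∆Firre, for each of the 42 tested genes, grouped by what the transcript models of the gene hold at the 3′ end and ordered by size within a group. Filled points have an adjusted p of 0.1 or less in limma. The 2 genes with a poly(A) signal only, Hist1h2bc and Hist2h2be, lie below 0, and 6 of the 7 with neither element found, whose models end at most 40 bases past the stop codon, are filled and above 1.5.

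Several genes also share upstream sequence. Among genes with a promoter window in the table used, 5 head-to-head pairs of an H2A and an H2B gene had start sites 174 to 249 bases apart (RefSeq, GRCm38.p6). Hist1h2bc and Hist2h2be had no window and were not paired this way, but they begin 240 bases beyond Hist1h2ac (1.15 and -0.58 for the H2A and H2B gene) and 192 bases beyond Hist2h2ac (2.08 and -0.10). In the pair Hist1h2an and Hist1h2bp both genes were called higher against ∆Firre (2.89 and 3.12), as in Hist1h2ag and Hist1h2bj (1.78 and 2.502). With GC correction Hist1h2an and Hist1h2ag (limma adjusted p = 0.250) lost their calls, so neither pair kept both, and Hist1h2an, Hist1h2bp, Hist1h2ah and Hist1h2bf were tested only through rescue. In Hist1h2ae and Hist1h2bg (1.66 and 2.83) and in Hist1h2ah and Hist1h2bk (1.81 and 2.56) the H2B gene alone was called. In Hist1h2ad and Hist1h2bf (-0.27 and 1.82) the H2B gene alone was called too. Promoter windows of 250 bases before to 50 after the start were found for 49 of the 55 genes, in 50 windows. CCAAT, read on both strands, was in 84.0% of them against 37.4% of all 32851 windows, TATAAA in 60% against 13.6%, and the octamer ATTTGCAT in 24.0% against 1.74%. CCAAT was in every H1, H2A, H2B and H3 window and in 3 of 11 H4 windows, and the octamer was in H2A and H2B windows only. A match is a description of the letters and not of a bound factor. The windows of Hist1h4b (largest difference from ∆Firre with a pseudocount of 1, none of the 3 motifs), Hist1h3c (CCAAT at several places) and Hist3h2a (CCAAT and octamer, no difference) are given, with motifs on either strand in capitals. They span chr13:23756687-23756986 (plus strand), chr13:23745472-23745771 (minus strand) and chr11:58954435-58954734 (plus strand) of GRCm38.p6.

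Hist1h4b: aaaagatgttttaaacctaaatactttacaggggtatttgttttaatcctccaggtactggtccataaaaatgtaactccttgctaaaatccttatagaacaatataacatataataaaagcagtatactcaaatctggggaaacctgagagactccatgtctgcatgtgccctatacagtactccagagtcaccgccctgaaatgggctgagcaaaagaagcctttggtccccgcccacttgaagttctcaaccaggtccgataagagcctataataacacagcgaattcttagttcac
Hist1h3c: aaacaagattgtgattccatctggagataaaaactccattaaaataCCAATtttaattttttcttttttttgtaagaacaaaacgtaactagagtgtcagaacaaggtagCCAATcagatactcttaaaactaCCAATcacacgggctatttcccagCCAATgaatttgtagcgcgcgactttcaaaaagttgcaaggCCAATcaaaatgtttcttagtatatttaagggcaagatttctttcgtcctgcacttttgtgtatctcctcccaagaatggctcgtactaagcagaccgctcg
Hist3h2a: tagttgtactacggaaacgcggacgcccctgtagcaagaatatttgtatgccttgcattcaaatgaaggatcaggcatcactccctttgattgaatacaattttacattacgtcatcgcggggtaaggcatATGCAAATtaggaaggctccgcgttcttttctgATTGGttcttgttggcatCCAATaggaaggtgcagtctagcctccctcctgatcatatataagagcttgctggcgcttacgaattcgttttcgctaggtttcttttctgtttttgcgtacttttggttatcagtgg

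The genes themselves lie at chr13:23756937-23757386 (Hist1h4b), chr13:23745042-23745521 (Hist1h3c) and chr11:58954685-58955192 (Hist3h2a). Whether these motifs go with the differences was not tested, and CCAAT goes with family.

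The machinery around histone supply was read from lists of related genes. Replacement histones, which are made through the cell cycle and mostly from polyadenylated mRNA, had 6 of 10 tested genes higher and 0 lower against each group. Of all genes tested, 8.58% were higher and 19.3% lower against ∆Firre, and 4.82% and 19.4% against WT. H2afz, the H2A.Z gene, was at 757.2 ± 99.8 TPM in rescue, 494.9 ± 97.4 in ∆Firre and 524.2 ± 39.1 in WT (SD, n = 4 each). H2afv, the second H2A.Z gene, differed from ∆Firre by 0.97 ± 0.14 (limma adjusted p = 0.000922), H2afx, the H2A.X gene, by 0.82 ± 0.11 (0.000764) and H1fx by 1.37 ± 0.32 (0.0126). H3f3b, a source of H3.3, was at 687.9 TPM in rescue and 686.0 TPM in ∆Firre.

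Genes of histone transcription and 3′ processing lay near the background against ∆Firre, with 1 of 19 tested higher and 5 lower and a median of -0.19, against -0.16 for all genes. Against WT 0 were higher and 7 lower, with a median of -0.19 against -0.21 for all genes. Npat, the activator of histone transcription at the clusters, was at 28.2 ± 2.69 TPM in rescue, 43.1 ± 4.31 in ∆Firre and 42.3 ± 2.19 in WT (SD, n = 4 each), a difference of -0.59 ± 0.11 from ∆Firre (limma adjusted p = 0.00364). Zcchc11, a uridylyltransferase of histone mRNA decay, fell by 0.49 on that scale (limma adjusted p = 0.00912). Casp8ap2, which works with Npat, fell by 0.41 on the log2 scale (limma adjusted p = 0.0356). Slbp was at 100.5 TPM in rescue and 99.0 TPM in ∆Firre and was not called. Sympk, a scaffold of the processing complex, was the gene called higher (0.57 ± 0.19, limma adjusted p = 0.0498). The background over all genes tested is 8.58% higher and 19.3% lower against ∆Firre, and 4.82% and 19.4% against WT.

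The same shares of all genes tested, 8.58% higher and 19.3% lower against ∆Firre and 4.82% and 19.4% against WT, stand beside the next lists. Histone chaperones had 3 of 20 higher and 2 lower against ∆Firre, and 0 higher and 4 lower against WT. Among them against ∆Firre, Asf1b, which carries H3 and H4 to replicating DNA, differed by 0.63 ± 0.17, Cabin1 by 0.68 ± 0.21 and Atrx, which deposits H3.3, by -0.495 ± 0.13. S phase genes had 9 of 28 higher and 0 lower against ∆Firre (median 0.22, all genes -0.16), and 4 higher and 2 lower against WT (median 0.06, all genes -0.21). Their summed level was 3747 to 4306 TPM in rescue, 2986 to 4043 in ∆Firre and 3576 to 4117 in WT, so rescue overlaps both other groups. Whether S phase has a part in the histone differences was not tested. E2f2, an S phase transcription factor, had the largest difference from ∆Firre among the S phase genes (0.999 ± 0.17, limma adjusted p = 0.00271), followed by Gins2 (0.84 ± 0.17) of the replication helicase and Tk1 (0.58 ± 0.15), a thymidine kinase. Mitosis genes had 5 of 12 higher and 0 lower against ∆Firre, led by Plk1, a mitotic kinase (0.93 ± 0.17, limma adjusted p = 0.00307), and 4 higher and 0 lower against WT. Of 16 RNAs without a poly(A) tail, 3 were matched in the table, and 0 were called.

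Other measured features of the rescue libraries moved with the histone genes, and their part in the result was not tested. Rescue libraries held 25690947 to 32453685 recovered reads, and WT and ∆Firre libraries 10953973 to 18101519. Genes above 0 numbered 15140 to 16835 in rescue and 15472 to 19877 in the others. B cell precursor markers were higher in 8 of 8 tested against both groups, with sums of 957.6 to 1482 TPM in rescue, 347.5 to 444.5 in ∆Firre and 267.7 to 495.8 in WT. Basophil and mast cell markers were lower in 6 of 6 against both, with sums of 64.0 to 142.4 TPM in rescue, 2918 to 4291 in ∆Firre and 1052 to 9045 in WT, and the lowest rescue library had Prss34 at 0. NK cell markers (5 of 6 lower against ∆Firre, sums of 52.6 to 82.4 TPM in rescue and 210.0 to 360.1 in ∆Firre), type 2 innate lymphoid markers (4 of 4 tested lower, 42.1 to 66.3 and 86.7 to 109.0 TPM) and plasma cell markers (4 of 7 lower and 2 higher, 306.2 to 530.1 and 1620 to 3422 TPM) moved as well. Areg was at 0 in every library. T cell markers (1 of 4 tested lower), myeloid markers (2 of 9 lower), eosinophil markers (1 of 6 lower), erythroid markers (0 of 5 called) and plasmacytoid dendritic cell markers (2 higher and 2 lower of 6) are given against ∆Firre, where 8.58% of all genes were higher and 19.3% lower. The CLP markers Il7r (404.5 TPM in rescue, 422.9 in ∆Firre) and Flt3 (591.2 and 555.4) were present in all groups, Ly6d and Rag1 were called higher and Kit lower. Vpreb1 and Igll1, the surrogate light chain genes, led the B cell precursor list, at 207.3 and 154.4 TPM in rescue and 35.4 and 27.4 TPM in ∆Firre. In bulk samples, a changed number of cells of a type and a changed amount of RNA per cell cannot be told apart.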

How the data were processed

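The authors deposited 1 table of TPM values for all 12 libraries. They aligned poly(A)+ reads to mm10 with TopHat2 v2.1.1 after trimming with cutadapt and counted genes with featureCounts on Gencode annotation, and the deposited TPM values are scaled for gene length and library size. TPM holds no depth as such, but steps between low values gave back whole reads for 99.9% of genes above 0 (within 0.02 reads), used for depth and for limma-voom. The main test was limma 3.58.1 in R 4.3.3 (lmFit, eBayes with a variance trend) on log2(TPM + 1), over 14479 genes with a mean of at least 1 TPM, with 3 groups in 1 fit. A gene was called where its p, adjusted by Benjamini-Hochberg over all genes tested, was at most 0.1. Python 3.11.15 made sums, motif searches and plots. The main limma fit was tested on simulated data, and the other fits were not. Differences are on the log2(TPM + 1) scale and understate changes of low genes.

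Members and gene lists were chosen with earlier results of these data known. Members named are the 12 of highest mean TPM, the leading member of each family and cluster, the 10 called members of largest difference in each comparison and the 3 on either side of the filter on low values. Up to 3 called genes of largest difference are named from other lists. Other genes (Hist1h1a, Hist1h2be, the paired genes, Slbp, H3f3b, Il7r and Flt3 among them) were chosen for position or role after their values were seen. Groups come from the labels, as do library numbers. Alternatives were another pseudocount, filter, scaling, threshold, test, GC correction, replicate block and each library left out. Another 12 genes with such names (H1f0, Hist1h2bm and others of Hist1 and Hist4) were not matched in the table and were not analysed here. Printed promoters are from RefSeq (GRCm38.p6).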

Additional observations from a re-analysis of the deposited data

Results flagged for a closer look

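Single libraries stood far from the other 3 of their group, by Dixon's test, in 12 of 99 sets of 4 values. Chance gives about 1 in 20, or 4.95 sets, but that rate does not hold for the 8 sets in which the other 3 values are all 0, and the remaining 4 are no more than chance gives. The summed TPM of H3 genes in rescue mouse 4 was 21.6, against 36.2 to 37.0 in the others. The remaining values are log2(TPM + 1). WT mouse 8 was low for Hist1h4i (3.95, others 5.61 to 5.85) and Hist1h1e (1.87, others 2.77 to 2.90), and high for Hist2h2bb (2.07, others 0.19 to 0.42). In the other 8 sets, 1 library had reads of a low gene and the other 3 were at 0. WT mouse 6 was the library with reads for Hist2h3b (1.197), Hist1h4m (1.36) and Hist1h3b (1.43). ∆Firre mouse 8 was that library for Hist1h2bp (0.37) and Hist1h4k (1.57), and ∆Firre mouse 11 for Hist1h4m (2.15). Rescue mouse 1 was that library for Hist1h3b (2.81), and rescue mouse 2 for Hist2h2bb (1.59).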

How the results depend on the processing

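Of 1395 values of single genes recomputed under 27 settings, 1259 kept direction and side of the threshold, 89 lost their call, 6 gained one and 41 changed sign, and the causes were not tested. For ∆Firre against WT, 3 genes of all tested were called, 6 without the filter, 1 with the 2 groups alone, 0 by limma-voom and 1 to 5 with 1 library left out. Rescue against ∆Firre, 24 histone genes were higher, 15 of the 22 with a mean of at least 5 TPM, 15 with GC correction and 17 to 23 with 1 library left out. The 1 lower call, Hist1h2bc, became 0 without the filter, under median-ratio or quantile scaling, after removal of Firre and of ribosomal, mitochondrial and antibody genes, without the variance trend, at an adjusted p of 0.05, by limma-voom and with GC correction (0 to 1 with 1 library left out). All genes called numbered 4043, 2682 at an adjusted p of 0.05, 2554 with GC correction and 2820 to 4460 with 1 library left out. Rescue against WT, 18 histone genes were higher, 12 of the 22 with a mean of at least 5 TPM, 21 under quantile scaling and 13 to 19 with 1 library left out. The 1 lower call, also Hist1h2bc, became 0 under the median ratio and GC correction. All genes called numbered 3512, 2263 with the 2 groups alone, 1996 with GC correction and 2670 to 4349 with 1 library left out. Without Hist1h2bc, the summed TPM was 217.6 in WT and 181.5 in ∆Firre, and that of H2B was 53.6 in WT, 46.2 in ∆Firre and 128.8 in rescue.

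Signs changed for small differences. ∆Firre against WT, these were Hist1h1b (-0.0173 with pseudocount 5, -0.49 to 0.53 with 1 library left out), Hist1h2bk (0.0181 with pseudocount 0.1, 0.0260 with GC correction, -0.71 to 0.12), Hist1h3c (0.00903 median ratio, 0.0456 limma-voom, 0.14 GC correction, -0.49 to 0.44), Hist2h2ac (-0.0940 quantile, -0.15 to 0.54), Hist2h2be (0.0295 median ratio, 0.0308 quantile, 0.00573 after removal of the named gene classes, 0.00807 limma-voom, -0.24 to 0.16), Hist2h3b (-0.00594 to 0.64) and Hist3h2a (-0.0764 to 0.34). Rescue against ∆Firre, these were Hist2h2be (0.0109 median ratio, 0.0254 quantile, 0.25 GC correction, -0.30 to 0.10) and Hist3h2a (0.0625 quantile, 0.21 GC correction, -0.29 to 0.13). Rescue against WT, these were Hist2h2be (0.0405 median ratio, 0.0562 quantile, 0.19 GC correction), Hist3h2a (-0.13 to 0.19) and Hist1h2ac (-0.15 to 0.60). WT and ∆Firre share the numbers 8 and 11, which the labels do not tie to a litter or day, and deviations correlated at -0.03 and -0.04. With the replicate block, 24 histone genes were higher against ∆Firre and 18 against WT, with 4024, 3511 and 3 of all genes called in the 3 comparisons. Depth limits the low genes most, since 1 read on 1 kb is worth 0.284 TPM in the shallowest library.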
